A study of Mus musculus with 8 samples.

Results

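The RNA targets of MBD5 and MBD6 were examined in 9 genes that encode large actin-linked proteins: Sptbn1, Sptan1, Flna, Actn1, Actn4, Myh9, Myh10, Plec and Tln1. Peaks were assigned to a gene when their midpoint lay in the gene body on the same strand, by the GENCODE M21 annotation of mm10. The genes were chosen by the deposited fold enrichments, because Sptbn1 carried one of the strongest Flag-MBD5 sites and had a lower enrichment with Flag-MBD6, so the values of that site and the comparison of the proteins in these genes are descriptions and were not tested. Of 29555 peaks, 392 lay in these 9 of 21924 protein-coding genes.

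Cross-linking and immunoprecipitation followed by sequencing (CLIP–seq) was performed in wild-type mouse embryonic stem (mES) cells that stably overexpressed the coding sequence of human MBD5 or human MBD6 with a Flag tag under hygromycin B selection, with 2 libraries per protein. Both lines carried an overexpressed, tagged human protein, and a line without the tagged protein was not analysed here. The cells were cultured with LIF, CHIR99021 and PD0325901 and were passaged on gelatin to clear feeder cells, although the tissue label reads "embryos". The characteristics of the CLIP samples and the study's methods give a Flag antibody, whereas the extraction protocol in the labels gives an antibody against MBD6. The 4 digested inputs were not used here, so a difference in RNA abundance between the lines and a difference in binding cannot be told apart.

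With Flag-MBD5, 5362 and 5388 peaks came from an estimated 478790 and 500143 reads, and with Flag-MBD6, 9218 and 9587 peaks came from 983918 and 1111742 reads, a depth ratio of 2.14. The reads at each peak summit were recovered from the deposited values. At strong sites, libraries of the same protein varied less than counting noise allows (chi-square per degree of freedom of 0.496 for Flag-MBD5 and 0.414 for Flag-MBD6, where independent sampling gives 1). Each protein was therefore treated as 1 sample, no test over libraries was made, and all intervals below are 95% exact intervals that cover counting error only. Of 12 embryonic stem cell markers, 4 and 5 had a peak with Flag-MBD5 and 8 had one in each library of Flag-MBD6. Of 9 fibroblast feeder markers, Fn1 alone had peaks (13 to 19 per library), and of 7 primitive endoderm markers, Lama1 alone had peaks (1 or 2 per library).

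Spectrins are long rods, built from α and β chains, that cross-link actin into the meshwork under the plasma membrane. Filamin and the actinins join actin filaments to each other, non-muscle myosin II pulls on them, plectin ties them to intermediate filaments, and talin connects them to integrins at focal adhesions. MBD5 and MBD6 are proteins with a methyl-CpG-binding domain that are known as partners of the PR-DUB complex, which removes ubiquitin from histone H2A.

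In CLIP after RNase T1, which cuts RNA after G, the 5′ end of a peak marks a cut next to the bound RNA. Sequences are shown for 1 or 2 sites of each gene, so that the RNA at the sites described below can be seen. Each run holds 5 nt before and 25 nt from the 5′ end that most libraries shared, on the RNA strand, read from the GENCODE M21 transcripts, and the capital marks the base immediately before the 5′ end. All lie in coding exons. On the minus strand of mm10 they span chr11:30136078-30136107 (Sptbn1 exon 17), chr11:30159401-30159430 (Sptbn1 exon 3), chrX:74246331-74246360 (Flna exon 1), chr12:80209432-80209461 (Actn1 exon 2), chr7:28901986-28902015 (Actn4 exon 12), chr15:77766835-77766864 (Myh9 exon 34), chr15:76178184-76178213 (Plec exon 33) and chr4:43555694-43555723 (Tln1 exon 5). On the plus strand they span chr2:30021230-30021259 (Sptan1 exon 43) and chr11:68807166-68807195 (Myh10 exon 34).
Sptbn1 exon 17: cctgGaaggagctgaagcagccattaaaaa
Sptbn1 exon 3: tacaGaagaagaccttcaccaagtgggtca
Sptan1 exon 43: tgtaGccaacgtggaagaggaggaggcttg
Flna exon 1: cggaGatgccggctaccgaaaaagacctag
Actn1 exon 2: tggtGcaactcccacctgcgcaaagcgggg
Actn4 exon 12: tgctGaagcaacgggactacgagacagcca
Myh9 exon 34: ggagGcggagctggaggatgagaggaagca
Myh10 exon 34: gcggGcactggctgtggcgtcaaagaagaa
Plec exon 33: agcaGcagcggcagcagcagcagatggaac
Tln1 exon 5: tcgaGagctgatggaagaaaagaaagatga

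With Flag-MBD5 the 9 genes held 101 and 108 peaks (1.88% and 2.0% of each list), and with Flag-MBD6 they held 93 and 90 (1.01% and 0.939%). The deeper Flag-MBD6 libraries thus had fewer peaks in these genes, although they had more peaks in total. Reproducible regions, where overlapping peaks of both replicates were merged, numbered 95 for MBD5 and 77 for MBD6, a ratio of 0.811. All regions, inside or outside genes, numbered 4019 and 7484, a ratio of 1.86. All 9 genes held at least 1 MBD5 region, as 7.8% of protein-coding genes did, and at least 1 MBD6 region, as 13.8% did. At least 5 MBD5 regions lay in 7 of the 9 genes and at least 5 MBD6 regions in 5 of them. Among genes with a coding sequence of at least 2400 nt, the shares were 3.03% and 6.41%. More MBD5 than MBD6 regions were found in 7 of the 9 genes, against 5.55% of protein-coding genes with a region. Tln1 had more MBD6 regions and Myh10 had equal numbers. The rule used these peaks, so the shares describe the choice of genes.

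Most MBD5 regions of these genes were also MBD6 regions, but the share was lower than over all MBD5 regions. An MBD6 region was present at 70 of the 95 MBD5 regions (73.7%, 63.6% to 82.2%), against 90.0% of all MBD5 regions. An MBD5 region was present at 69 of the 77 MBD6 regions (89.6%, 80.6% to 95.4%), against 47.7% of all MBD6 regions. Over the 4 libraries the peaks formed 120 sites, of which 69 had a peak in every library, against 3566 of all 12074 sites. A peak with Flag-MBD5 alone was found at 16 sites, at 8 of them in both of its libraries. A peak with Flag-MBD6 alone was found at 8 sites, at 3 of them in both of its libraries. The same counts over all sites are not given here, so these are not set against a share. A site without a peak fell short of the authors' threshold in that library and can still hold reads.

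**Figure D1:**
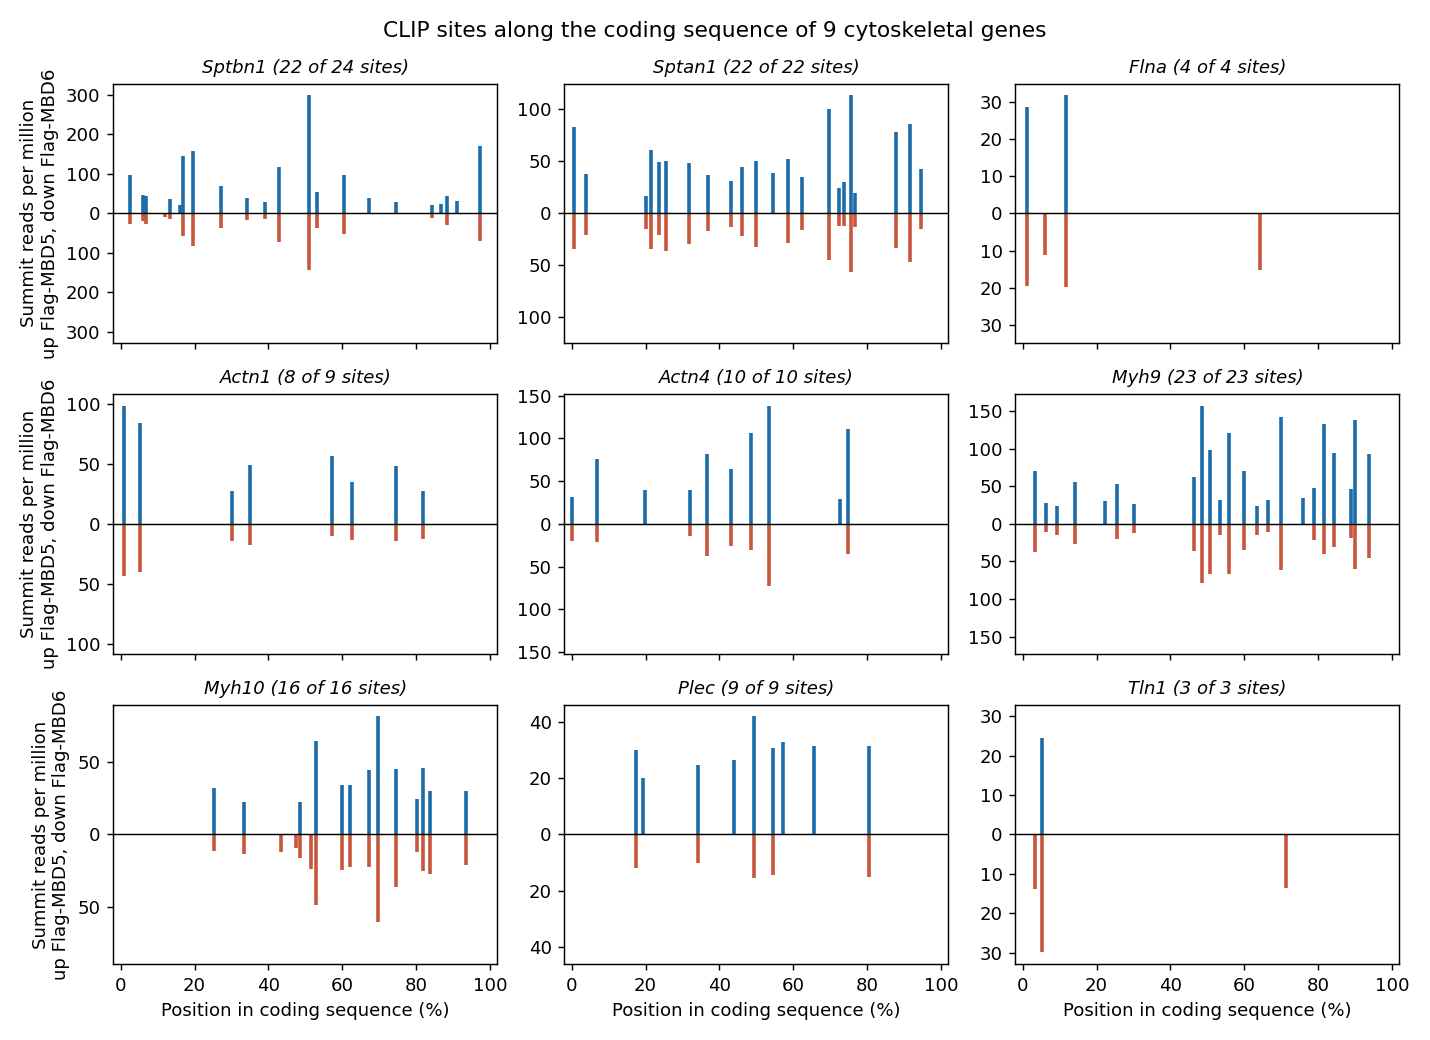
Sites along the coding sequence of the 9 genes, by position in percent of the coding sequence. Bars give the mean summit reads, scaled to 1000000 estimated reads (RPM), of the libraries with a peak, upwards for Flag-MBD5 and downwards for Flag-MBD6, on a scale of its own for each gene. At most sites of Sptbn1, Sptan1, Actn1, Actn4, Myh9 and Plec the upward bar is the longer one, and in Myh10 the sites gather in the later part. Of 120 sites, the 117 in the coding sequence of the transcript used are drawn.

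Sptbn1, the non-erythroid β-spectrin, had 24 sites, of which 23 lay in 22 of the 36 exons of the transcript used, and those in its coding sequence ran from codon 62 to codon 2301. It held 19 MBD5 regions and 13 MBD6 regions. With Sptan1 it shared rank 3 of all genes by number of MBD5 regions, and it had rank 21 by MBD6 regions. Of its sites, 13 had a peak in all libraries, 6 had one with Flag-MBD5 alone and 1 with Flag-MBD6 alone.

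The site in exon 17 of Sptbn1 (chr11:30135816-30136115, minus strand, codon 1207), whose RNA is printed first above, was the one named in the choice of the genes. Its fold enrichment, the reads at the summit over the local background rate with 1 added to each, was 119.6 and 101 with Flag-MBD5, rank 2 and rank 3 of all peaks, and 32.4 and 29.5 with Flag-MBD6, rank 549 and rank 703. The number of reads at its summit was 149 and 143 with Flag-MBD5 and 142 and 157 with Flag-MBD6. The background rate was 0.254 and 0.420 reads with Flag-MBD5 and 3.41 and 4.35 reads with Flag-MBD6. The raw reads thus overlapped between the proteins, whereas the fold enrichment and the background rate did not. Fold enrichment is not scaled for depth. Where background rates are near or below 1 read, the added 1 lets it rise with depth.

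The lowest background rate that a library gives on a strand scales with its depth, and against that lowest rate the background at this site was 1 and 1.58 times as high with Flag-MBD5 and 6.52 and 7.34 times as high with Flag-MBD6. The difference in log2 fold enrichment, Flag-MBD6 minus Flag-MBD5, was −1.83. Scaled to 1000000 estimated reads of the library (RPM), the summit reads were 311 and 286 with Flag-MBD5 and 144 and 141 with Flag-MBD6, a difference of −1.06 on the log2 scale and a ratio, MBD6 over MBD5, of 0.480 (0.380 to 0.607). The fold enrichment thus differed by more than the scaled reads did. The background rate rose by 3.56 on the log2 scale, against a median of 0.98 over all sites found in every library. The fold enrichment is divided by this rate with 1 added, and that divisor rose by less than the rate did.

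Among all 271 sites with at least 60 summit reads in every library, this site had the lowest difference in log2 fold enrichment. By scaled reads, 26 of the 271 sites, itself included, had a difference as low or lower, and by background rate 2 sites, itself included, had a rise as large. The 5 sites outside the 9 genes with the nearest difference in fold enrichment had differences of −1.39 to −1.22, and they lay in Hnrnpu, 2410002F23Rik and Rpl5 and at 2 positions without a protein-coding gene on the strand.

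**Figure D2:**
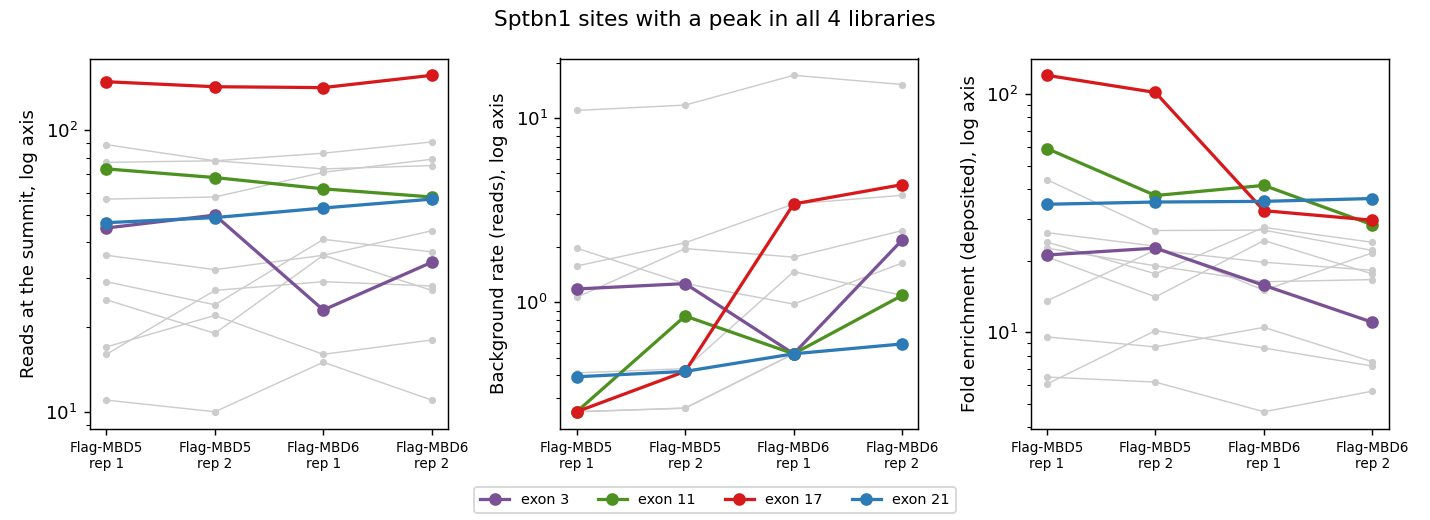
Reads at the summit, background rate and deposited fold enrichment of the 13 Sptbn1 sites with a peak in all 4 libraries, on log axes; lines join the values of a site and grey lines are the 9 sites not named. The exon 17 site holds 142 to 157 reads in every library, while its background rate is at 0.254 and 0.420 with Flag-MBD5 and at 3.41 and 4.35 with Flag-MBD6.

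Among the 13 Sptbn1 sites with a peak in all libraries, 1 other site had overlapping reads with a fold enrichment and a background rate that did not overlap. This site, in exon 14 (codon 642), held 36 and 32 reads with Flag-MBD5 and 36 and 44 with Flag-MBD6, and its fold enrichment was 26.2 and 23 against 15 and 21.6. The exon 21 site (chr11:30121441-30121706, codon 1428), which had the best mean rank over the 4 libraries, held 47 and 49 reads with Flag-MBD5 and 53 and 57 with Flag-MBD6. Its fold enrichment was 34.5 and 35.2 with Flag-MBD5 and 35.4 and 36.4 with Flag-MBD6, and the scaled reads gave a ratio of 0.535 (0.357 to 0.805). The fold enrichments lay close together in all libraries.

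The largest difference in scaled reads of the gene, and of all 9 genes, was in exon 3 (chr11:30159194-30159425, codon 62). Its reads were 45 and 50 with Flag-MBD5 and 23 and 34 with Flag-MBD6, so fewer reads were found in the deeper libraries. The scaled ratio was 0.282 (0.172 to 0.457), and the fold enrichment was 21.1 and 22.6 against 15.7 and 11. Over the 13 sites the summed reads were 671 and 658 with Flag-MBD5 and 680 and 716 with Flag-MBD6, a scaled ratio of 0.490 (0.440 to 0.546), and the median log2 fold enrichment difference was −0.30.

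Sptan1, the α-spectrin that pairs with the β chain, had 22 sites in 22 of 57 exons. It held 19 MBD5 and 16 MBD6 regions, and 15 sites had a peak in all libraries. The site with the best mean rank, in exon 43 (chr2:30021235-30021425, codon 1887), held 55 and 56 reads with Flag-MBD5 and 54 and 65 with Flag-MBD6, with a fold enrichment of 39.9 and 41.1 against 22.2 and 34.7. The reads of the proteins overlapped, and after scaling the ratio was 0.50 (0.342 to 0.734).

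The largest difference in scaled reads in Sptan1 was in exon 55 (chr2:30030447-30030611, codon 2363). The reads there were 22 and 20 with Flag-MBD5 and 13 and 19 with Flag-MBD6, a scaled ratio of 0.356 (0.174 to 0.716). Summed over the 15 sites, Sptan1 had 467 and 447 reads with Flag-MBD5 and 457 and 526 with Flag-MBD6. The scaled ratio of 0.503 (0.442 to 0.572) was within the interval of Sptbn1, so the spectrin chains were not told apart by it.

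Flna, filamin A, had 4 sites, few for its coding sequence of 7914 nt (0.505 per kb, against 3.25 per kb in Sptbn1). The exon 1 site (chrX:74246033-74246355, codon 33), the one site with a peak in all libraries, held 12 and 16 reads with Flag-MBD5 and 16 and 25 with Flag-MBD6. Its fold enrichment was 9.33 and 13.4 with Flag-MBD5 and 8.60 and 16.3 with Flag-MBD6. The values overlapped, and the scaled ratio of 0.701 (0.340 to 1.49) included 1. The exon 5 site had 15 and 16 reads with Flag-MBD5 and 22 reads in the second Flag-MBD6 library, and the sites in exons 2 and 29 had a peak in 1 Flag-MBD6 library each.

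Actn1 and Actn4, the actinins found outside muscle, had 9 and 10 sites and the densities of 3.37 and 3.66 sites per kb. Actn1 held 7 MBD5 and 4 MBD6 regions. Its best ranked site, in exon 2 (chr12:80209263-80209456, codon 46), held 48 and 34 reads with Flag-MBD5 and 43 and 40 with Flag-MBD6, a scaled ratio of 0.479 (0.304 to 0.755). Its fold enrichment was 35.2 and 27.7 against 28.9 and 25.7, with overlap between the proteins. The largest difference was in exon 10 (chr12:80183386-80183556, codon 313), with 26 and 22 reads against 21 and 16 and a scaled ratio of 0.370 (0.192 to 0.704).

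Actn4 held 8 MBD5 and 6 MBD6 regions. The exon 5 site (chr7:28915097-28915262, codon 181) had a peak with Flag-MBD5 alone, with 21 and 18 reads and a fold enrichment of 17.5 and 14.4. It had the best mean rank of the gene over the libraries with a peak, but in the Flag-MBD5 libraries themselves the sites in exons 2, 11, 12, 13 and 17 ranked better. The exon 17 site (codon 683) had the best rank there, with a fold enrichment of 29.8 and 26.6, against 14.2 and 15.6 with Flag-MBD6. The exon 12 site (chr7:28901813-28902025, codon 443) had the largest difference, with 51 and 53 reads with Flag-MBD5 and 27 and 36 with Flag-MBD6, and the scaled ratio was 0.287 (0.179 to 0.455). Its fold enrichment was 23.9 in both replicates of Flag-MBD5 and 11.4 and 19.1 with Flag-MBD6, without overlap. The exon 11 site (codon 394) differed most by fold enrichment, at 18.5 and 22.5 against 9.83 and 7.26. Summed over their sites in all libraries, the scaled ratios were 0.434 (0.335 to 0.562) for Actn1 and 0.40 (0.331 to 0.483) for Actn4, with overlapping intervals.

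Myh9 and Myh10, the heavy chains of non-muscle myosin IIA and IIB, are 77.8% identical in sequence but differed in the reads they gave. Myh9 had 23 sites, 21 MBD5 regions and 19 MBD6 regions, rank 2 and rank 6 of all genes. Myh10 had 16 sites and 12 regions of either protein. Over the 18 Myh9 sites with a peak in all libraries, the reads were 692 and 744 with Flag-MBD5 and 703 and 731 with Flag-MBD6, a scaled ratio of 0.466 (0.420 to 0.518). Over the 10 such Myh10 sites Flag-MBD5 gave 211 reads in either library and Flag-MBD6 gave 314 and 309, a scaled ratio of 0.691 (0.578 to 0.827). These intervals do not overlap. Over all sites with a peak in every library the same ratio was 0.758.

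The Myh9 site with the best mean rank lay in exon 24 (chr15:77773816-77774063, codon 996) and held 45 and 52 reads with Flag-MBD5 and 70 and 68 with Flag-MBD6. Its fold enrichment of 36.7 and 41.9 with Flag-MBD5 and 46.6 and 43.3 with Flag-MBD6 was the best of the 9 genes in both Flag-MBD6 libraries, at rank 176 and rank 212. The exon 34 site (chr15:77766610-77766859, codon 1601) had the largest difference, with 68 and 62 reads against 31 and 53, a scaled ratio of 0.302 (0.200 to 0.452) and a fold enrichment of 49.5 and 46.6 against 21 and 33.9. By fold enrichment the exon 33 site (codon 1547) differed most, at 23.1 and 15.8 with Flag-MBD5 and 10.1 and 7.98 with Flag-MBD6. The fold enrichment was thus higher with Flag-MBD6 in exon 24 and higher with Flag-MBD5 in exons 33 and 34. The scaled reads were higher with Flag-MBD5 at each of these sites. In exon 24 the scaled ratio was 0.658, with an interval that ended at 0.969. This holds for the depth ratio of 2.14. With the depth ratio of 1.69 from the median over sites, used further below, it would be nearer to 1, and that interval is not given here. The background rate in exon 24 was the lowest of each library on the strand, and at such rates the fold enrichment rises with depth.

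The best ranked Myh10 site, in exon 25 (chr11:68791863-68792082, codon 1046), held 29 and 34 reads with Flag-MBD5 and 54 and 46 with Flag-MBD6. Its fold enrichment was 21.4 and 26.7 against 34.1 and 27.8, and the scaled ratio of 0.730 (0.459 to 1.18) included 1. The largest difference was in exon 33 (chr11:68804774-68804946, codon 1586), with 12 reads in both replicates of Flag-MBD5 and 10 and 16 with Flag-MBD6, a scaled ratio of 0.506 (0.213 to 1.21). At 1 of its 10 sites the scaled reads were at least 2-fold higher with Flag-MBD5, against 13 of 18 sites in Myh9.

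Sites of the myosins also lay at like positions. When the translated coding sequences were aligned, 8 of 23 Myh9 sites (34.8%) lay within 10 residues of a Myh10 site, where 17.1% of Myh9 positions did so, and 8 of 16 Myh10 sites (50%) lay near a Myh9 site, where 24.3% of positions did. In 6 of these pairs both sites had a peak in all libraries, and all 6 lay in exons of the same number. In all 6 the scaled difference was higher in Myh10. In the exon 35 pair it was −1.60 in Myh9 and −0.10 in Myh10, and in the exon 34 pair, whose RNAs are printed above, it was −1.78 and −0.85. For the actinins, 4 of 8 Actn1 sites and 4 of 10 Actn4 sites lay near a site of the other gene, where 22.0% and 18.3% of positions did so. For the spectrins 3 of 22 Sptbn1 and 4 of 22 Sptan1 sites did so, where 18.2% and 17.5% of positions did. The shares of positions cover the whole chain and do not allow for sites that gather in a part of it, as described below for the myosins. Reads could map to up to 10 places, and at 3 of the 109 sites where they could be read from the transcript, the 25 nt from the 5′ end also occurred in another gene. These were the Myh9 and Myh10 sites in exon 13 and the Actn4 site in exon 10, while 11 sites, 4 of Myh9 among them, were not checked. The exon 13 sites and the Actn4 site are among the sites counted above as near a site of the other gene.

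The myosin heavy chain has a motor head, a neck that binds light chains and a long coiled-coil tail. The translated sequence of each chain held 1 match to the IQ motif, the light chain binding motif of the neck, at residue 786 of Myh9 and residue 793 of Myh10, and 59.9% of either chain followed it. Of the Myh9 sites, 16 of 23 (69.6%) lay after it, with 82.1% to 84.9% of the summit reads in each library. Of the Myh10 sites, 14 of 16 (87.5%) lay after it, with 88.8% to 100% of the reads. In every library the share was the higher one in Myh10.

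Plec, plectin, had 9 sites in a coding sequence of 14070 nt, 0.640 per kb. It held 6 MBD5 and 3 MBD6 regions, and 4 sites had a peak with Flag-MBD5 alone. Of these, the one with the best mean rank, in exon 33 (chr15:76177957-76178208, codon 2685), held 16 reads in each Flag-MBD5 library, with a fold enrichment of 9.96 and 10.8. The exon 32 site at codon 2322 (chr15:76178872-76179472) held 20 and 21 reads with Flag-MBD5 and 17 and 15 with Flag-MBD6, a scaled ratio of 0.356 (0.174 to 0.716), and its fold enrichment of 11.8 and 15.3 against 9.11 and 10.05 did not overlap. All Plec sites had at most 21 reads.

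Tln1, talin 1, was the one gene with a scaled ratio above 1. It had 3 sites, 1 MBD5 region and 3 MBD6 regions. The exon 5 site (chr4:43555500-43555718, codon 137) held 12 reads in both replicates of Flag-MBD5 and 35 and 27 with Flag-MBD6, and its fold enrichment was 10.4 and 10.3 against 23.6 and 17.6. The fold enrichments did not overlap, but the scaled ratio of 1.21 (0.603 to 2.58) included 1. The background rate was 0.254 and 0.265 reads with Flag-MBD5 and 0.524 and 0.593 with Flag-MBD6, the lowest of each library on the strand. At such rates the fold enrichment rises with depth. The exon 4 site held 13 and 16 reads and the exon 41 site 15 and 13 reads with Flag-MBD6, and neither had a peak with Flag-MBD5.

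**Figure D3:**
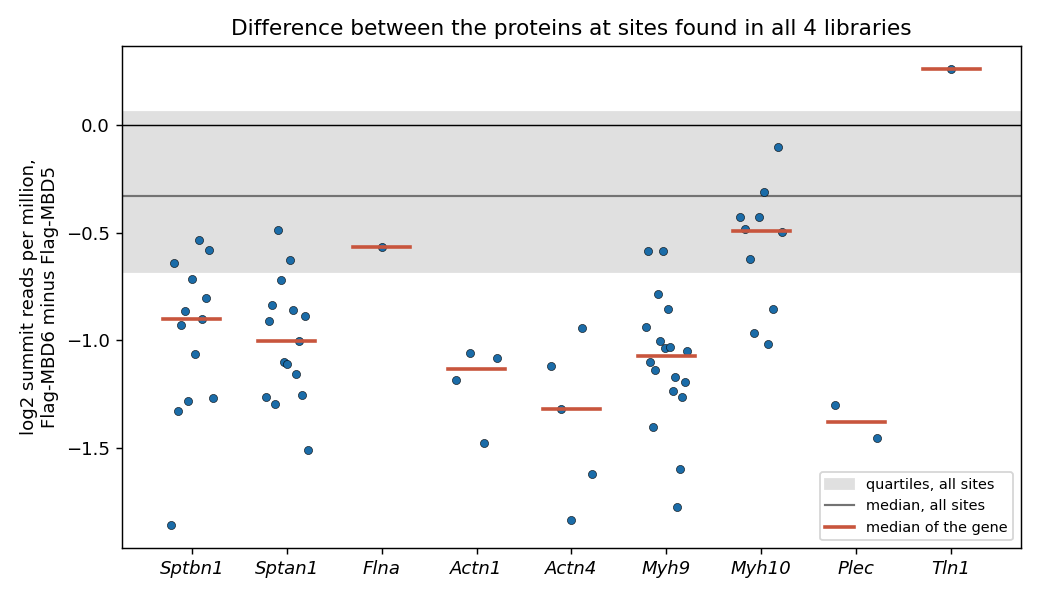
Difference in log2 scaled summit reads (RPM), Flag-MBD6 minus Flag-MBD5, at each of the 69 sites with a peak in all 4 libraries, by gene. Orange bars are the medians of the genes, the grey line and band are the median and quartiles of all 3566 such sites, and points below 0 had more scaled reads with Flag-MBD5. The medians of Sptbn1, Sptan1, Actn1, Actn4, Myh9 and Plec lie below the band, those of Flna and Myh10 inside it, and Tln1 lies above it.

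Over the 69 sites with a peak in all libraries, the median difference in log2 scaled summit reads, Flag-MBD6 minus Flag-MBD5, was −1.02 (quartiles −1.26 and −0.72, range −1.86 to 0.26), against −0.33 (quartiles −0.68 and 0.06) over all 3566 such sites. It was negative at 68 of the 69 sites, against 72.2% of all sites. Scaled reads were at least 2-fold higher with Flag-MBD5 at 37 of the 69 sites, against 9.9% of all sites, and at least 2-fold higher with Flag-MBD6 at 0 sites, against 0.897%. By fold enrichment 3 of the 69 sites, in Sptbn1 exon 17, Actn4 exon 11 and Myh9 exon 33, were at least 2-fold higher with Flag-MBD5, against 0.869%, and 0 were with Flag-MBD6, against 15%. The median difference in log2 fold enrichment was −0.22, against 0.41 over all sites. Because fold enrichment can rise with depth, these differences are read only beside those of all sites.

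The scaled reads depend on the depth estimate. When libraries were scaled by the median ratio of reads over the 3566 sites instead, the median of all sites moved from −0.33 to 0.01 and the median of the 69 sites to −0.68. The difference was then negative at 66 of the 69 sites and at 49.5% of all sites, and scaled reads were at least 2-fold higher with Flag-MBD5 at 9 sites, against 2.16% of all. The 2 sites that turned positive were those in exons 32 and 35 of Myh10. The gene medians were then −1.04 (Plec) to −0.15 (Myh10), and 0.60 in Tln1.

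The authors collapsed identical reads and kept up to 5 reads per position, which limits the reads of strong sites more in a deeper library. The part of this limit in the differences was not tested. Among sites with a mean of 20 to 40 summit reads, the median was −0.92 at the 32 sites in these genes and −0.21 at all 1651 sites. Among sites with a mean of 40 to 80 reads it was −1.05 at 21 sites and −0.35 at all 773. Below 20 reads it was −1.06 at 14 sites and −0.40 at all 889, and from 80 reads, where the 9 genes had 2 sites, −1.0 against −0.60 at 253. In each range the median of these genes was the lower one.

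**Figure D4:**
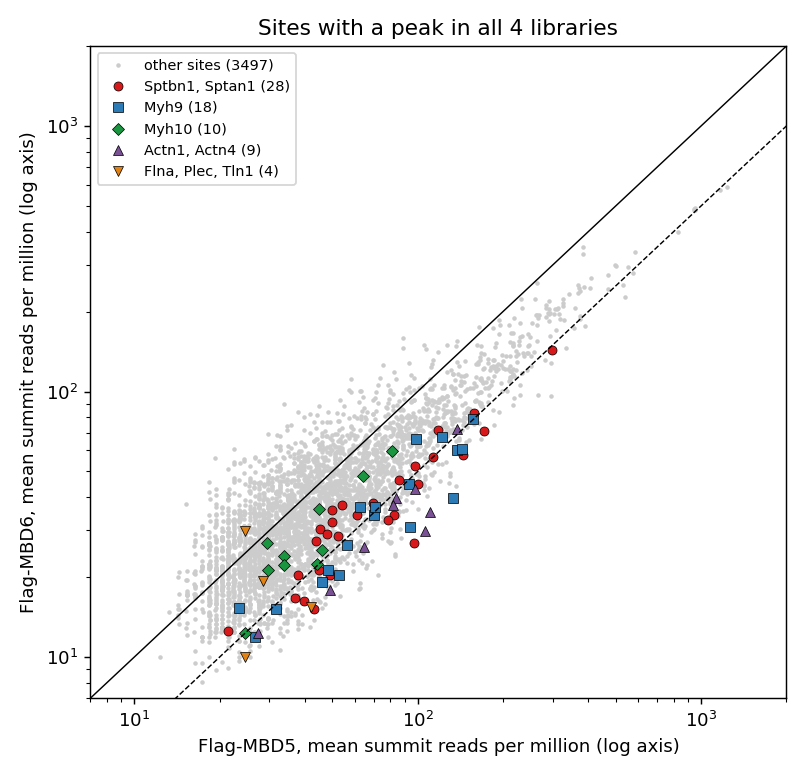
Mean scaled summit reads (RPM) with Flag-MBD5 (x axis) and Flag-MBD6 (y axis), log axes, for the 3566 sites with a peak in all 4 libraries; the solid line marks equal values and the dashed line values 2-fold higher with Flag-MBD5. Grey points are the 3497 sites outside the 9 genes, and coloured symbols are the 69 sites inside them, which lie about the dashed line except for Myh10, Flna and Tln1.

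By the base 15 nt inside the 5′ end and any protein-coding transcript of the gene, 391 of 392 peaks (99.7%, 98.6% to 100%) lay in coding sequence and 1 in a UTR, in exon 2 of Sptbn1. Counted as sites, 119 of 120 lay in coding sequence, against 89.4% of 10311 sites in other protein-coding genes. Where 30 nt from the 5′ end could be read from the transcript, at 109 sites, the preceding base was G at 95 (87.2%) and C at 12, while G made up 30.1% of the coding sequences. At sites in other genes the share of G was 78.6%. RNase T1, the enzyme of the digestion, cuts after G.

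These windows of 30 nt held 33.1% A, against 27.6% in the coding sequences they came from, and 80 of the 109 windows were above their own coding sequence. In other genes the windows held 37.9% A, against 28.9% in their coding sequences, so the windows of the 9 genes were less rich in A. The A share was highest in Tln1 (40%, 3 windows) and Myh10 (37.9%, 16 windows) and lowest in Myh9 (29.8%, 19 windows). Of the 10 codons from the 5′ end, 22.7% coded for an acidic residue, against 17.8% over the same proteins, and 17.3% coded for lysine or arginine, against 14.5%. Glutamate, which is frequent in coiled coils, made up 15.9% of these codons, against 11.6%.

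Of a list of 50 genes from the same families and their partners, which left out the 9 genes, 17 had an MBD5 region and 24 an MBD6 region, and 22 had no peak in any library. More MBD6 than MBD5 regions were found in 15 of them and more MBD5 regions in 4. The most MBD6 regions lay in Dst, a giant plakin that links actin to other filaments, with 38 MBD6 and 30 MBD5 regions. Macf1, a plakin that joins actin to microtubules, held 20 MBD6 and 17 MBD5 regions. The actin scaffold Iqgap1 held 10 MBD6 and 17 MBD5 regions, and Utrn, a relative of dystrophin, 8 MBD6 and 6 MBD5 regions. Dsp, a plakin of desmosomes, and Ezr, which ties actin to the membrane, followed with 7 MBD6 regions each and with 9 and 10 MBD5 regions. Iqgap1, Dsp and Ezr thus had more MBD5 regions, as 7 of the 9 genes described above did, while Dst, Macf1 and Utrn had more MBD6 regions, as Tln1 did. In all, the list held 109 MBD5 and 127 MBD6 regions.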

How the data were processed

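The authors filtered, clipped and collapsed identical reads, removed rRNA reads, aligned to mm10 with Bowtie 1.0.0, split strands with SAMtools 1.16.1 and called peaks per library and strand with MACS2 version 2 (extension of 150 bp, genome size of 1.3e+08 bp, up to 5 reads per position, q under 0.01). The deposited lists hold the fold enrichment, a ratio of summit reads to the local background rate with 1 added to each. They also hold −log10 p and −log10 q, which the authors' MACS2 run gave at the summit, and a deposited score, 10 times −log10 q as a whole number. Which library or window the background rate came from is not given in the sources used here. Input libraries were not used.

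Summit reads and background rates were solved from fold enrichment and −log10 p, taking the whole number of reads that returned both deposited values within their rounding. Every peak had such a number, and where 2 numbers met this, at 4 and 2 peaks of the Flag-MBD5 libraries, the closer was taken (Python 3.11.15, numpy 2.4.6, scipy 1.17.1, pandas 2.3.3, Biopython 1.88). Library totals were estimated from the lowest rate on each strand, the genome size and the extension. The solver returned the simulated reads for 100% of 1939 simulated peaks, and 96.1% of simulated intervals held the true ratio. Sites are clusters of overlapping peaks of all libraries, with 1 bp or more shared. Ratios of scaled summed reads carry 95% exact binomial intervals, and shares carry Clopper-Pearson intervals. With 2 libraries against 2 an exact permutation test cannot give a two-sided p below 0.333, so none was run. Peaks were classed by the base 15 nt inside the 5′ end, as coding where any protein-coding transcript of the gene had coding sequence there. Exon numbers, codons and sequences come from the CCDS transcript with the longest coding sequence, in which 117 of the 120 sites had a codon. All 9 genes are named, each with its site of best mean rank over the libraries with a peak and its site of largest difference. The 5 sites most like the Sptbn1 site and the 5 listed cytoskeletal genes with most MBD6 regions, ties included, are named too. The genes, lists and comparisons were chosen with earlier results of these data known.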

Additional observations from a re-analysis of the deposited data

How the results depend on the processing

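Of 75 alternative values, 64 stayed within their limits, 11 moved and 0 reversed. The limit was the spread between replicates for log2 differences, 1.5 times for counts and the 95% exact interval for shares. For the Sptbn1 exon 17 site, leaving out 1 library cannot move a value beyond this spread, by construction. Those values, counted among the 64, are therefore no check of that site. With 5362 peaks from each library, the 9 genes held 95 MBD5 regions and 53 MBD6 regions, the latter down from 77. Of these, 53.7% of MBD5 regions and 96.2% of MBD6 regions were shared. With peaks of either library, 85.8% of MBD5 regions were shared. Depth by the median ratio gave −0.72 for the scaled reads of the Sptbn1 exon 17 site and −0.68 for the median of the 69 sites. Scaled reads in place of fold enrichment gave −1.06 for the Sptbn1 site. Peaks classed by the midpoint or the summit lay in coding sequence at 70.7% and 74.5%; the cause was not tested. Without 1 library at a time, the share was 69.4% to 83.2% for MBD5 regions, 85.6% to 96.1% for MBD6 regions and 99.7% to 100% for coding peaks. With at least 20 reads in every library, 43 sites gave a median of −1.0, against −0.52 over all such sites. The deviations of same-numbered replicates had a correlation of 0.030 over all sites and 0.20 over the 69 sites. The replicate block gave the same values by construction, −1.83 for fold enrichment at the Sptbn1 site and −1.02 for the median of scaled reads. Peak lists hold sites above the threshold only, so sites with few reads in either protein, such as those of Plec and Flna, limit the comparison.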
